A study of Mus musculus with 4 samples.

Results

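Iron handling and antioxidant defence were described through 10 mouse genes given by name: the ferritin subunits Fth1 and Ftl1, the transferrin receptor Tfrc, heme oxygenase Hmox1, the glutathione genes Gclc, Gclm and Slc7a11, the thioredoxin reductase Txnrd1, and the transcription factor gene Nfe2l2 with its repressor gene Keap1. All 10 were found among the 53465 gene identifiers of the count table, and 7 of them had enough counts to be tested. Polyadenylated RNA was sequenced from libraries labelled MLE-12, a mouse line made from lung epithelium by immortalization that resembles alveolar type 2 cells. The control group held 2 libraries (replicates 1 and 2). The treated group held 2 libraries (replicates 2 and 3) of cells exposed for 12 h to 5 µM 1-nitropyrene, a nitrated polycyclic hydrocarbon of diesel exhaust. Whether the libraries came from separate cultures is not in the labels, so the p-values below measure only the spread between these libraries, which may be technical.

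Ferritin is a hollow shell of heavy and light chains in which cells store iron, and the transferrin receptor brings iron into the cell. Both are set by iron regulatory proteins, which bind a hairpin, the iron responsive element, in the mRNA: at the 5′ end of ferritin mRNA binding blocks translation, and at the 3′ end of Tfrc mRNA it protects the message from decay. Nrf2, the protein made from Nfe2l2, is held back by Keap1 until electrophiles or oxidants modify Keap1. Nrf2 then enters the nucleus and, with small Maf proteins, activates genes that carry antioxidant response elements, among them the ferritin genes, Hmox1, Gclc, Gclm, Txnrd1 and Slc7a11.

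Matches to the hairpin pattern in the iron genes are shown because the element marks genes that share a post-transcriptional control. A pattern of a bulged C, 5 bases, the loop CAGTGN and 5 bases that pair with the first 5 (G-T pairs allowed) was searched on the sense strand of the protein-coding transcripts of GENCODE M21 (GRCm38). In the sequences the bulged C and the loop are in capitals, T stands for U, and positions are on GRCm38.
Fth1 5′ UTR, chr19:9982733-9982759, plus strand: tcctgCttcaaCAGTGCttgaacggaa
Ftl1 5′ UTR, chr7:45459780-45459806, minus strand: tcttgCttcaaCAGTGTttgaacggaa
Slc40a1 5′ UTR, chr1:45925466-45925492, minus strand: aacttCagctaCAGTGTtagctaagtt
Tfrc 3′ UTR, chr16:32631220-32631246, plus strand: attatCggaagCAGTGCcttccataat
Tfrc 3′ UTR, chr16:32631599-32631625, plus strand: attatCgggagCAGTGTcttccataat
Tfrc 3′ UTR, chr16:32631664-32631690, plus strand: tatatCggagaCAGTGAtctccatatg
Tfrc 3′ UTR, chr16:32631711-32631737, plus strand: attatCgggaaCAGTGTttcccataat

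Tfrc held 4 matches in its 3′ UTR, all in the transcript Tfrc-201, while Fth1 held 1 in the 5′ UTR of 4 of its 5 coding transcripts and Ftl1 held 1 in 1 of 2. Among 21877 genes with coding transcripts, 0.142% had a match in the 5′ UTR, 0.59% in the 3′ UTR and 0.64% in the coding region, where Keap1 held 1. Slc40a1 encodes the iron exporter ferroportin and is no member of the set. A match is a pattern of letters and not a measured binding site.

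Promoter windows from 250 bases before to 50 after the start site (RefSeq, GRCm38.p6) were matched for 8 of the 10 genes, with 12 windows. Hmox1 and Gclc were not matched. Sequence outside these windows was not searched, so a window without a match does not show that the gene lacks the element. On both strands, TGACNNNGC, the core of the antioxidant response element, was found in 3 of the 12 windows and in 12.4% of all 32851 windows. The pattern can overlap an AP-1 site (TGANTCA), which was in 0 of the 12 windows and in 7.81% of all. The E-box CACGTG was in 0 of 12 and 7.15% of all, and GCGTG, the core of the site of the Ah receptor, in 9 of 12 and 32.4% of all. Those 9 windows belonged to Fth1, Ftl1, Tfrc, Gclm, Txnrd1 and Keap1. Windows are not separate genes: Txnrd1 had 3, and Tfrc had 2 that overlap. Base composition was not matched either, and whether any motif was enriched was not tested. TGATGNAA, the element bound by ATF4 with its partners, was in 1 of the 12 windows, that of Slc7a11, which held it on each strand, and in 3.97% of all. The stretches are shown for the tested genes that held either element, with the matched letters in capitals and positions counted from the start site.
Gclm, antioxidant element on the reverse strand at -134, chr3:122245411-122245443, plus strand: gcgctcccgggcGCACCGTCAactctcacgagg
Nfe2l2, antioxidant element at -240, chr2:75704883-75704913, minus strand: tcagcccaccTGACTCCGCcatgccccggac
Slc7a11, ATF4 element at -66, chr3:50443660-50443691, minus strand: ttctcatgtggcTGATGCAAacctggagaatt
Slc7a11, ATF4 element on the reverse strand at -47, chr3:50443641-50443672, minus strand: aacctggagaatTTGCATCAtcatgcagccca

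The libraries held 6908055 to 10773733 counts, and loci of ribosomal RNA took 44.2% to 45.9% of them. Genes annotated as rRNA took 8.77% to 9.20%, and the rest of that share lay in further loci taken as ribosomal RNA by name. Of the 10 epithelial markers 9, among them Krt8, Cdh1 and Nkx2-1, had 0 counts in all 4 libraries, and Sftpc had 1 count, so the table does not show the labelled cell type by its markers. The 10 macrophage and 8 erythroid markers, from cells rich in ferritin or heme, summed to 0 to 2 counts and 0 to 1 count per library, with 6 and 7 of them at 0 throughout. The 6 endothelial markers summed to 3 and 2 counts in control replicates 1 and 2 and to 0 in both treated libraries. The fibroblast list reached 520 to 532 CPM (counts scaled to the library total with TMM factors, the trimmed mean of M-values) in the controls and 803 to 813 CPM in the treated libraries, nearly all in Vim and Fn1. The other fibroblast markers were few and did not share that direction: Pdgfra had 23 and 8 counts in control libraries against 7 and 6 with 1-nitropyrene, Col3a1 had 13 and 3 against 2 and 0, Col1a2 had 17 and 7 against 0 and 1, and Col1a1 had 9 and 5 against 0 and 2. Pdgfra alone of these was tested and was not called (log2 fold change -1.18, adjusted p = 0.118, edgeR). The part of these markers in the results was not tested. Transcripts that nearly all cells make were also at or near 0: ribosomal protein genes had a median of 4 to 9 counts per library, beta-2-microglobulin (B2m) had 0 to 4 and superoxide dismutase Sod1 had 1 count in all, while beta-actin (Actb) had 76931 to 119049 counts. A low count here therefore says only that few reads were assigned to that mouse locus, and it is not read as a low transcript level. The same limit touches the high counts: the table does not show from which cells or organism the assigned reads came, which was not tested, so every level and fold change below compares reads assigned to mouse loci. In bulk RNA, fewer cells of a type and less RNA per cell cannot be told apart.

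With 1-nitropyrene 4 of the 7 tested genes rose and 0 fell (edgeR quasi-likelihood test, Benjamini-Hochberg adjusted p under 0.05 over 7738 genes). Fth1, the heavy ferritin chain, rose 1.43-fold, Tfrc 1.33-fold, Hmox1, which breaks heme down to biliverdin, iron and carbon monoxide, 2.66-fold, and Gclc, the catalytic subunit of glutamate-cysteine ligase, 1.22-fold. Gclm, Slc7a11 and Nfe2l2 did not pass the test. Ftl1, Txnrd1 and Keap1 had 2 to 21 counts over the 4 libraries and were not tested. Across all tested genes 24.5% were called, 13.2% higher and 11.2% lower, and the median log2 fold change was -0.0035, against 0.29 over the 7 tested members. The members were chosen with earlier results of these data known, so this contrast is not a test of the set. At an unadjusted p under 0.05 the members also numbered 4 higher and 0 lower, limma-voom called 4 and 0, and DESeq2 called 2 and 0. Over all genes limma-voom called 937 higher and 743 lower of 7738. DESeq2 called 465 and 254 of the 4808 to which it gave an adjusted p. The groups did not overlap in 5 of the 7, where 59.2% of all tested genes showed the same. An exact permutation test of a single gene over 2 against 2 libraries cannot give a two-sided p below 0.333, so each call rests on the spread pooled over all genes.

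**Figure D1:**
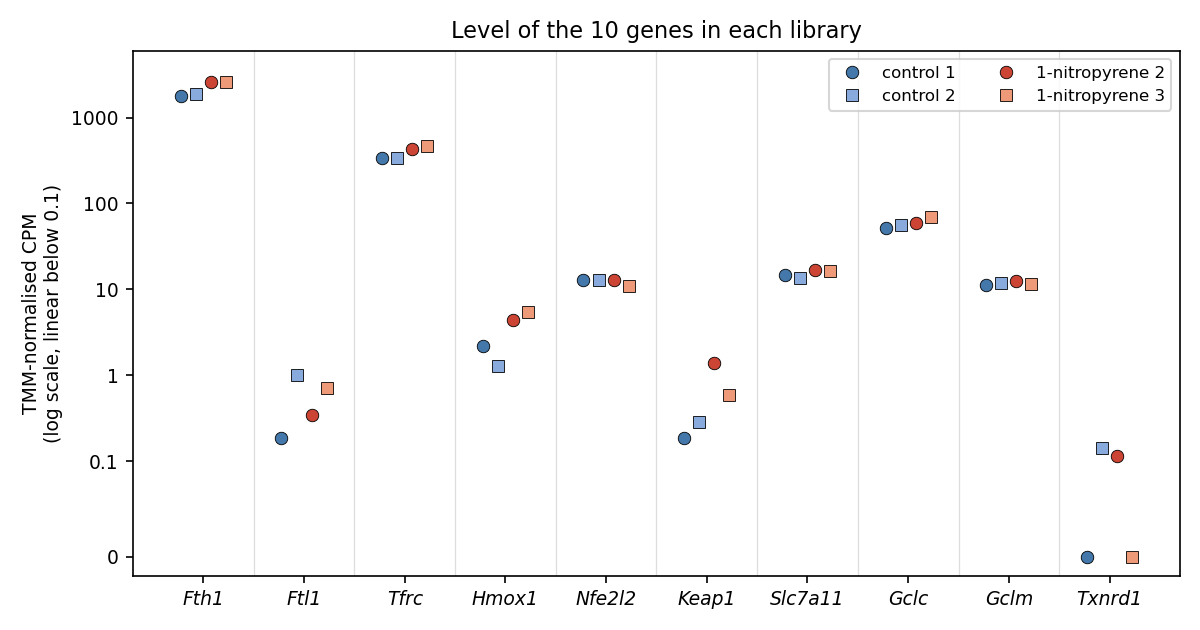
TMM-normalised CPM of the 10 genes (log scale, linear below 0.1) in the 4 libraries, 1 point per library. Fth1 lies at 1801 to 2619.8 CPM, Tfrc, Gclc and Hmox1 have both treated libraries above both controls, and Ftl1, Keap1 and Txnrd1 lie near or below 1 CPM.

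Fth1 (ENSMUSG00000024661, GRCm38 chromosome 19, 9980598 to 9985098, plus strand) carries the ferroxidase site that turns ferrous iron into the form that is stored. It was at 1801 and 1858 CPM in the controls and at 2613 and 2619.8 CPM with 1-nitropyrene. Both treated libraries lay above both controls, and the treated pair differed by less than the control pair. The group values were 1829 ± 40.0 and 2617 ± 4.66 CPM (SD, n = 2), which is 0.52 on the log2 scale (SE 0.023, adjusted p = 1.34e-110 from edgeR, 95% interval of the ratio 1.39 to 1.48). By p-value it was number 8 of 7738 genes, and by mean CPM it stood at percentile 99.8. Fth1 alone made up 80.8% to 82.9% of the reads of the 10 genes and 0.182% and 0.188% of all counts in the controls against 0.258% and 0.259% in the treated libraries. No exon of Fth1 overlapped another gene, and 1.59% of its 50-base stretches were found in another gene, the locus Gm6977. The call was kept under all 15 alternative settings, with log2 fold changes between 0.49 and 0.54.

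Ftl1 (chromosome 7, 45457944 to 45459884, minus strand), the light chain that helps the iron core form, had 2 and 7 counts in control libraries against 3 and 6 with 1-nitropyrene. The groups overlapped, and pooled by group the ratio of treated to control was 1.02 with a counting interval of 0.357 to 2.89. Intervals of this kind reflect the error of counting alone: the reads carry no molecular identifiers and need not be independent molecules. Of the 50-base stretches of Ftl1, 58.4% were also found in 17 other loci, among them processed pseudogenes, and how the authors treated reads with several mapping places is not given in the sources used here. Those 17 loci together held 27 counts in the 4 libraries. The counts thus allow no statement on the light chain, and the ratio of heavy to light chain was not computed.

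Tfrc (chromosome 16, 32608920 to 32632794, plus strand) was at 336 and 337 CPM in the controls and at 430.3 and 463 CPM with 1-nitropyrene. Both treated libraries were above both controls, and the treated pair spread more widely. The means were 337 ± 0.869 and 447 ± 23.0 CPM (SD, n = 2), or 0.41 on the log2 scale (SE 0.037, adjusted p = 1.10e-26, edgeR), with the ratio between 1.26 and 1.39. Tfrc, whose transcript Tfrc-201 held the 4 pattern matches shown above, and Fth1 thus moved in the same direction at the RNA level. Which transcripts were present, the binding of iron regulatory proteins and translation were not measured. The log2 fold change of Fth1 was larger by 0.11 (95% interval 0.025 to 0.19), but without 1-nitropyrene replicate 2 the difference was 0.059 (-0.040 to 0.16), and its interval also included 0 without control replicate 1 (-0.017 to 0.20) and in DESeq2 (-0.0079 to 0.23). The call of Tfrc was kept under the 15 alternatives, between 0.35 and 0.46. No 50-base stretch of Tfrc was found in another gene.

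Hmox1 (chromosome 8, 75093621 to 75100589, plus strand) had 24 and 9 counts in control libraries against 38 and 47 with 1-nitropyrene, or 2.21 and 1.29 CPM against 4.37 and 5.52 CPM. Both treated libraries lay above both controls. The log2 fold change was 1.41 (SE 0.35, adjusted p = 0.000582, edgeR), the largest among the 7 tested genes, and the ratio lay between 1.65 and 4.30. All 4 libraries passed the filter on low counts, so the gene was not admitted by its treated libraries alone. The fold change ranged from 1.15 (without control replicate 2, adjusted p = 0.0288) to 1.92 (without control replicate 1, adjusted p = 0.00547), and the call was kept in each of the 14 alternatives that gave an adjusted p. DESeq2 gave 1.47 and no adjusted p, at an unadjusted p of 0.00892. The log2 fold change of Hmox1 exceeded that of Fth1 by 0.90 (95% interval 0.20 to 1.59). The interval included 0 without control replicate 2 (0.62, -0.17 to 1.41), without 1-nitropyrene replicate 3 (0.72, -0.11 to 1.55) and in DESeq2 (-0.15 to 2.05), and the difference was 1.43 without control replicate 1. None of the 50-base stretches of Hmox1 was found in another gene. Hmox2, the constitutive heme oxygenase, had 1 count in all 4 libraries.

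Gclc (chromosome 9, 77754535 to 77794485, plus strand) forms with Gclm the enzyme of the first and rate-limiting step of glutathione synthesis. It was at 51.2 and 55.5 CPM in the controls and at 59.5 and 70.3 CPM with 1-nitropyrene. The groups did not overlap, but the gap between them, from 55.5 to 59.5 CPM, was smaller than the distance between the treated libraries. The means were 53.3 ± 2.99 and 64.9 ± 7.65 CPM (SD, n = 2), or 0.29 on the log2 scale (SE 0.080, adjusted p = 0.00214, edgeR). The call was lost without 1-nitropyrene replicate 3 (0.17, adjusted p = 0.234), without control replicate 1 (0.22, adjusted p = 0.168) and in DESeq2 (0.28, adjusted p = 0.156).

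Gclm (chromosome 3, 122245557 to 122270732, plus strand), the modifier subunit, was at 11.3 and 11.9 CPM in the controls and at 12.4 and 11.6 CPM with 1-nitropyrene. The groups overlapped, and the difference was 0.06 on the log2 scale (SE 0.18, adjusted p = 0.862, edgeR) and a ratio between 0.817 and 1.33. The change of Gclc exceeded that of Gclm by 0.23, with a 95% interval of -0.15 to 0.62, so the data did not separate the 2 subunits. Of the 50-base stretches of Gclm, 4.58% were also found in other genes, first among them Ppia and its copies, and 296 bp of its exons lay opposite Gm17494.

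Slc7a11 (chromosome 3, 49892526 to 50443614, minus strand) encodes the light chain of the cystine importer that supplies cysteine for glutathione. It was at 14.8 and 13.5 CPM in the controls and at 16.9 and 16.2 CPM with 1-nitropyrene. Both treated libraries were above both controls, yet the difference of 0.21 on the log2 scale (SE 0.16, adjusted p = 0.346, edgeR) did not pass the test, and the ratio lay between 0.938 and 1.43. Its heavy chain partner, Slc3a2, had 5 counts in all and was not tested. Of the 50-base stretches of Slc7a11, 1.47% were also found in other genes, 571 in all, first among them Gm14150 and the tubulin gene Tuba1a.

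Nfe2l2 (chromosome 2, 75675513 to 75704641, minus strand), the gene of Nrf2 itself, was at 12.8 and 12.9 CPM in the controls and at 13.0 and 10.9 CPM with 1-nitropyrene. The groups overlapped, and the difference was -0.10 on the log2 scale (SE 0.17, adjusted p = 0.738, edgeR) and a ratio between 0.736 and 1.18. Without 1-nitropyrene replicate 3 the value was 0.018. These counts measure the mRNA only, while Nrf2 is known to be set mainly through the stability of its protein.

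Keap1 (chromosome 9, 21229730 to 21239361, minus strand), which brings Nrf2 to the ubiquitin ligase of Cul3, had 2 and 2 counts in control libraries against 12 and 5 with 1-nitropyrene. Both treated libraries were above both controls, and the pooled counts, 4 and 17, gave a ratio of 4.32 (counting interval 1.41 to 17.6). The gene missed the filter on low counts. Without that filter its log2 fold change was 2.08 (SE 0.78, adjusted p = 0.126, edgeR). With 1 control library left out the gene passed the filter through its treated counts. Its log2 fold change was then 1.73 without control replicate 1 and 2.34 without control replicate 2. When 1-nitropyrene replicate 3 was left out, the gene entered the test through the 1 treated library that remained, where it was high, so its value there (2.55, adjusted p = 0.0132, edgeR) is not counted as a call. Of the exons of Keap1, 510 bp lay opposite Gm16754, and 7.78% of its 50-base stretches were found in that gene.

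Txnrd1 (chromosome 10, 82833951 to 82897712, plus strand), the cytosolic selenoprotein that keeps thioredoxin reduced, had 1 count in control replicate 2, 1 count in 1-nitropyrene replicate 2 and 0 in the others. None of its 50-base stretches was found in another gene. Thioredoxin itself (Txn1) had 1 to 4 counts per library. A count of 0 allows up to 0.278 to 0.434 CPM of total counts, at a floor of 3 counts.

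**Figure D2:**
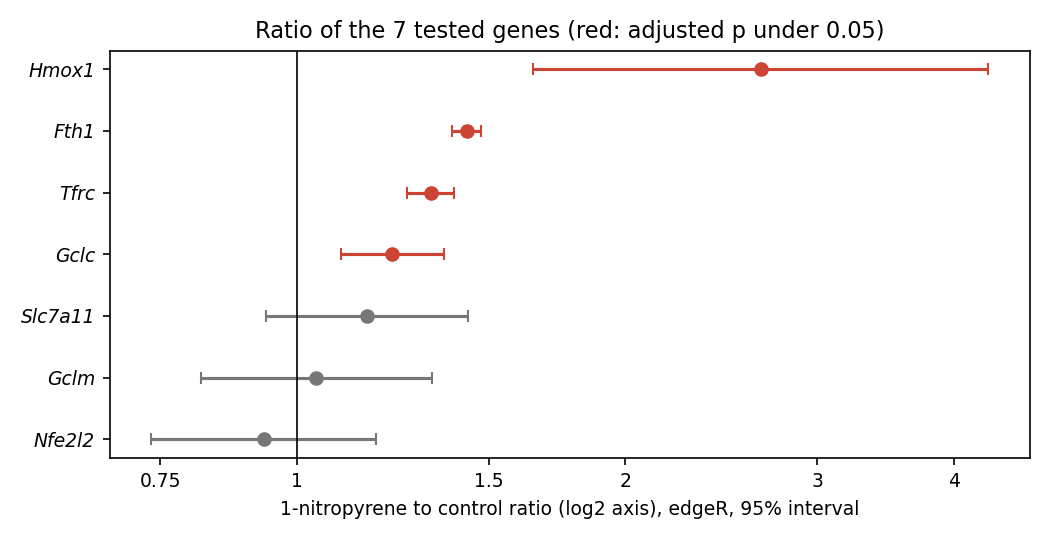
Ratio of 1-nitropyrene to control for the 7 tested genes on a log2 axis, with 95% intervals from edgeR. The intervals of Hmox1, Fth1, Tfrc and Gclc lie above 1, and those of Slc7a11, Gclm and Nfe2l2 include 1.

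Per kilobase of annotated exon, reads at Fth1 stood highest, at 519 to 535 CPM per kb in the controls and 753 to 755 CPM per kb with 1-nitropyrene. Tfrc followed with 54.3 to 54.5 and 69.6 to 74.8 CPM per kb. Gclc had 13.6 to 14.7 and 15.8 to 18.7 CPM per kb, and Nfe2l2 3.37 to 3.40 and 2.88 to 3.42 CPM per kb. These 4 did not overlap with one another. Gclm had 1.80 to 1.97 CPM per kb over the 4 libraries. Slc7a11, at 0.968 to 1.06, and Hmox1, at 0.737 to 1.26 CPM per kb, could not be ordered in the controls. With 1-nitropyrene Hmox1 stood at 2.50 to 3.15 CPM per kb, above Gclm and overlapping with Nfe2l2. This order is one of assigned reads over the length of all annotated exons of a gene, and it is not read as an order of transcript levels.

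The genes with profiles most like that of Fth1, by the root mean square distance between log2 CPM over the 4 libraries, each centred on its own mean, were Qrich1 (distance 0.00039), Ppp4r1 (0.0045) and Npm1 (0.012). Npm1, the nucleolar protein nucleophosmin, was at 133 and 136 CPM in control libraries against 189 and 194 CPM with 1-nitropyrene. With 4 libraries in 2 groups, many genes with a change of this size come close.

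Beyond the 10 genes, 171 genes of iron, heme and redox pathways were counted, of which 40 had 0 counts in every library, 48 were below the filter and 83 were tested. Of these 11 rose and 11 fell (13.3% each), near the shares of 13.2% and 11.2% over all tested genes, and their median log2 fold change was -0.016. The calls of Nfe2l1, Cul3, Pcbp1, Pcbp2, Gpx1, Sephs2, Idh2, G6pdx and Abhd4 were kept under each of the 15 alternatives. DESeq2 did not call Ep300, Slc25a28, Glrx3, Gpx4, Prdx1, Sephs1, Tkt, Mthfd2, Nadk, Ephx1 and Acsl4 (adjusted p between 0.0922 and 0.360) and gave Gstm1 and Txnrd2 no adjusted p. With no filter beyond 1 count Slc25a28, Glrx3, Gstm1, Gpx4, Txnrd2, Sephs1, Nadk, Ephx1 and Acsl4 were not called either (edgeR, adjusted p between 0.0510 and 0.134).

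Among the regulators of Nrf2, 13 genes were tested with Nfe2l2, and 2 rose and 1 fell. Nfe2l1, a relative of Nrf2 that drives proteasome genes, fell from 677 and 709 CPM to 426 and 416 CPM (log2 fold change -0.72, SE 0.033, adjusted p = 4.13e-101, edgeR). Cul3, the scaffold of the ligase that Keap1 serves, rose from 627 and 649 CPM to 779 and 800.2 CPM (0.31, SE 0.030). The coactivator Ep300 rose from 154.3 and 154.5 CPM to 167 and 180.0 CPM (0.17, SE 0.050). Its call ended without control replicate 1 (adjusted p = 0.0808), control replicate 2 (0.0509) or 1-nitropyrene replicate 3 (0.177, edgeR). Sqstm1, the autophagy receptor that binds Keap1, was at 12.0 and 8.74 CPM in control libraries against 13.9 and 15.04 CPM with 1-nitropyrene (0.43, adjusted p = 0.0542, edgeR), and it was called without control replicate 1 (0.73, adjusted p = 0.0305) and with the older quasi-likelihood method (adjusted p = 0.0482). Bach1, the repressor of Hmox1, had 1 count in all.

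Of 25 genes of iron uptake, storage and export 12 were tested, with 4 higher and 1 lower. Beside Fth1 and Tfrc these were Pcbp1 and Pcbp2, RNA-binding proteins that also hand iron to ferritin. Pcbp1 rose from 1240.0 and 1239 CPM to 1455 and 1469 CPM (log2 fold change 0.24, SE 0.026), with 75 bp of exon opposite another gene. Pcbp2 rose from 3237 and 3369.5 CPM to 3739 and 3969.9 CPM (0.22, SE 0.020), with 1702 bp of exon opposite another gene. The mitochondrial iron importer Slc25a28 fell from 49.0 and 46.3 to 40.0 and 41.1 CPM (-0.24, SE 0.092, adjusted p = 0.0406, edgeR). That call ended when any 1 of the libraries was left out, with an adjusted p of 0.357 and 0.0715 without control replicates 1 and 2, and 0.153 and 0.0786 without 1-nitropyrene replicates 2 and 3. It also ended in limma-voom (adjusted p = 0.0532).

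The iron regulatory protein genes did not pass the test. Aco1 was at 4.60 and 5.45 CPM in control libraries against 7.25 and 5.52 CPM with 1-nitropyrene (log2 fold change 0.37, adjusted p = 0.319, edgeR). Ireb2 was at 60.1 and 69.4 CPM and 61.0 and 63.9 CPM (-0.034, adjusted p = 0.805, edgeR). Slc40a1, whose pattern match in the 5′ UTR is shown above, was at 2.94 and 1.58 CPM in control libraries against 4.49 and 3.41 CPM with 1-nitropyrene (0.71, SE 0.35, adjusted p = 0.128, edgeR). Its treated libraries lay above both controls, without passing the test. Ncoa4, which delivers ferritin to the lysosome, had 6 and 3 counts in control libraries against 3 and 7 with 1-nitropyrene.

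Of 18 genes of heme synthesis and breakdown 8 were tested, and Hmox1 was the 1 that rose. None fell in edgeR, also at an unadjusted p under 0.05 (0 lower), in DESeq2 (0) and in limma-voom (0). Blvrb, a biliverdin reductase that acts after heme oxygenase, was at 25.3 and 27.1 CPM in control libraries against 34.4 and 28.6 CPM with 1-nitropyrene (log2 fold change 0.28, adjusted p = 0.0615, edgeR), and it was called without 1-nitropyrene replicate 3 (0.40, adjusted p = 0.0166). The synthesis genes Uros and Alad and the transporter Abcb6 had log2 fold changes of -0.85, -0.37 and -0.68 at under 5 CPM, with adjusted p between 0.252 and 0.442 in edgeR.

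In the list of glutathione synthesis and use, 14 of 36 genes were tested, with 2 higher and 3 lower. Glutathione peroxidase Gpx1 rose from 235 and 236 CPM to 282 and 279.8 CPM (log2 fold change 0.26, SE 0.042, adjusted p = 3.52e-08, edgeR), a call kept under each alternative. Gpx4, the peroxidase that repairs lipid peroxides in membranes, fell from 16.0 and 16.5 CPM to 13.8 and 9.75 CPM (-0.46, SE 0.17, adjusted p = 0.0276, edgeR). Its call ended without control replicate 1 (adjusted p = 0.131), control replicate 2 (0.104) or 1-nitropyrene replicate 3 (-0.23, adjusted p = 0.467). The transferase Gstm1 fell from 9.47 and 10.6 CPM to 6.10 and 6.93 CPM (-0.61, SE 0.22), and this call ended when any 1 library was left out (adjusted p between 0.0568 and 0.172). Glrx3, an iron-sulfur glutaredoxin, fell from 204 and 207 CPM to 184 and 187 CPM (-0.14, SE 0.047). It was not called without control replicate 1 (adjusted p = 0.0684), control replicate 2 (0.0951) or 1-nitropyrene replicate 2 (0.0746).

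In a list of thioredoxin, peroxiredoxin and related genes 10 of 22 were tested, with 3 higher and 1 lower. The related genes include Sephs1 and Sephs2, and Prdx1 was the only thioredoxin or peroxiredoxin gene called higher. Sephs2, which makes the selenium donor for selenoproteins, rose from 45.6 and 51.3 CPM to 65.7 and 61.3 CPM (log2 fold change 0.41, SE 0.082). It shares 792 bp of exon with a gene on the opposite strand. The peroxiredoxin Prdx1 rose from 35.0 and 37.7 CPM to 45.0 and 48.2 CPM (0.37, SE 0.095), a call that ended without control replicate 1 (adjusted p = 0.0997, edgeR). Sephs1 rose from 38.9 and 36.3 CPM to 44.9 and 45.1 CPM (0.25, SE 0.095), and its call ended when any 1 library was left out (adjusted p between 0.0985 and 0.232), as it did in limma-voom (0.0512), with upper quartile factors (0.0559) and with no scaling (0.0762). The mitochondrial reductase Txnrd2 fell from 5.79 and 8.31 CPM to 3.11 and 4.70 CPM (-0.80, SE 0.27, with 176 bp of exon opposite another gene), a call that ended without control replicate 2 (adjusted p = 0.248) or 1-nitropyrene replicate 2 (0.271).

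In a list of 15 genes around the removal of superoxide and peroxide 5 were tested. Of these 0 were called in edgeR, with 0 at an unadjusted p under 0.05 and 0 in DESeq2 and limma-voom. The tested enzymes that act on superoxide or peroxide themselves were Sod2 and the catalase Cat, both at low counts. Cat was at 5.89 and 3.73 CPM in control libraries against 5.98 and 4.11 CPM with 1-nitropyrene (log2 fold change 0.0056, adjusted p = 0.992, edgeR). Sod2 was at 2.02 and 2.01 CPM in control libraries against 2.07 and 1.88 CPM with 1-nitropyrene. The sestrin Sesn2 was at 1.56 and 1.29 against 1.04 and 0.47 CPM (log2 fold change -0.93, adjusted p = 0.264, edgeR), Sesn3 at -0.16 and the kinase Oxsr1 at 0.044 on the log2 scale.

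Genes that supply NADPH, the electron source of these enzymes, had 11 of 15 tested, with 2 higher and 3 lower. G6pdx, which opens the pentose phosphate pathway, rose from 104 and 109.8 CPM to 133 and 134 CPM (log2 fold change 0.32, SE 0.058, adjusted p = 3.74e-07, edgeR), with 418 bp of exon opposite another gene. Transketolase Tkt rose from 35.2 and 34.5 CPM to 45.4 and 44.7 CPM (0.37, SE 0.097). The mitochondrial isocitrate dehydrogenase Idh2 fell from 376 and 373 CPM to 271 and 261 CPM (-0.49, SE 0.039, adjusted p = 9.51e-34, edgeR). The folate enzyme Mthfd2 fell from 64.6 and 72.4 CPM to 54.7 and 56.4 CPM (-0.29, SE 0.078), a call that ended without control replicate 2 (adjusted p = 0.110, edgeR). Nadk, the kinase that makes NADP, fell from 136 and 129 CPM to 120.2 and 118 CPM (-0.16, SE 0.056, adjusted p = 0.0224, edgeR), and was not called without control replicate 1 (adjusted p = 0.370) or 1-nitropyrene replicate 3 (0.0979).

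Of 28 other genes listed as Nrf2 targets 13 were tested, with 2 higher (G6pdx and Tkt again) and 2 lower. Nqo1 and Srxn1, which serve widely as readouts of Nrf2, had 0 counts in all 4 libraries. The epoxide hydrolase Ephx1 fell from 15.9 and 17.9 CPM to 12.4 and 11.6 CPM (log2 fold change -0.47, SE 0.16), a call that ended without control replicate 2 (adjusted p = 0.145), 1-nitropyrene replicate 2 (0.0524) or 1-nitropyrene replicate 3 (0.123, edgeR). Abhd4, a lipase, fell from 72.9 and 74.8 CPM to 55.8 and 55.8 CPM (-0.40, SE 0.077, adjusted p = 2.85e-06, edgeR).

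A list of lipid and other genes linked to ferroptosis, a cell death through iron-driven lipid peroxidation, had 12 of 18 tested. Of these 1 was higher and 0 lower (0 lower at an unadjusted p under 0.05, in DESeq2 and in limma-voom). Acsl4, which loads membranes with polyunsaturated fatty acids, rose from 13.7 and 18.1 CPM to 21.9 and 18.9 CPM (log2 fold change 0.40, SE 0.15, adjusted p = 0.0275, edgeR). That call ended without control replicate 1 (0.17, adjusted p = 0.624) or 1-nitropyrene replicate 2 (0.29, adjusted p = 0.269). Lpcat3, at -0.15, was called lower without 1-nitropyrene replicate 2 (-0.24, adjusted p = 0.0493, edgeR), and Vdac2 and Hspb1 were at 0.059 and -0.12.

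**Figure D3:**
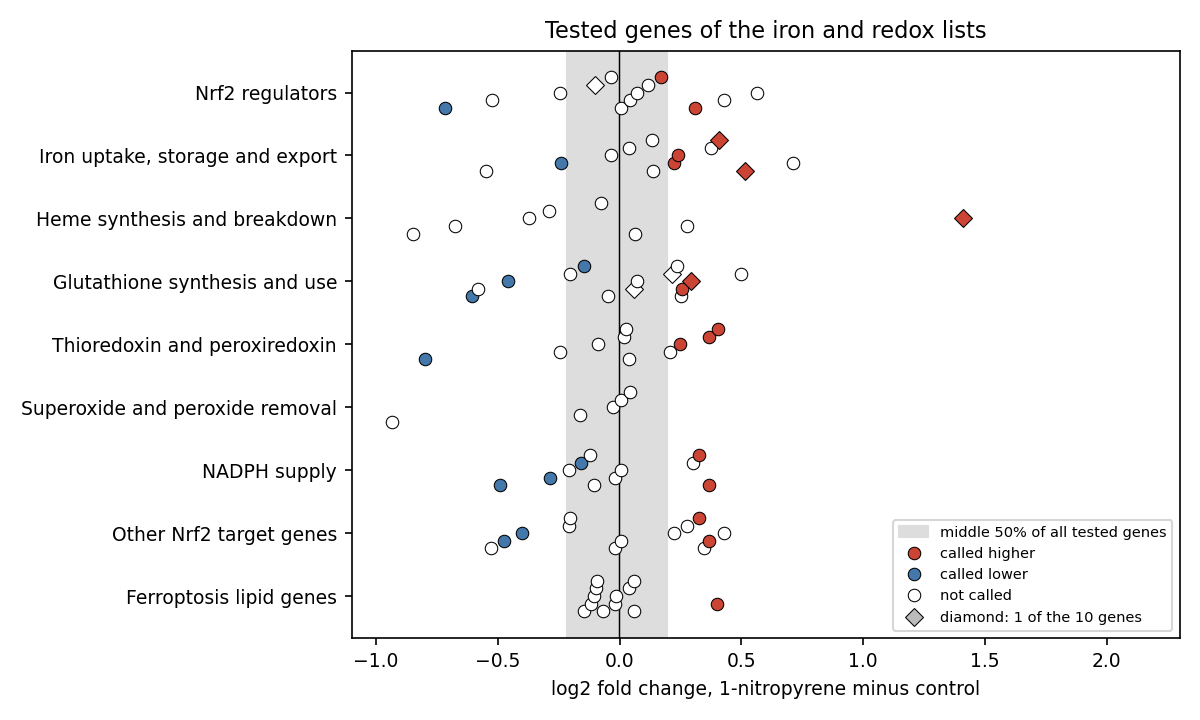
Log2 fold change of 1-nitropyrene against control for each tested gene of the 9 iron and redox lists. Points are genes (diamonds are members of the set of 10, red and blue are called higher and lower, white not called), the grey band from -0.21 to 0.19 holds the middle 50% of all tested genes and the line is their median. Hmox1 lies farthest to the right, at 1.41, and most lists hold genes on both sides.

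**Figure D4:**
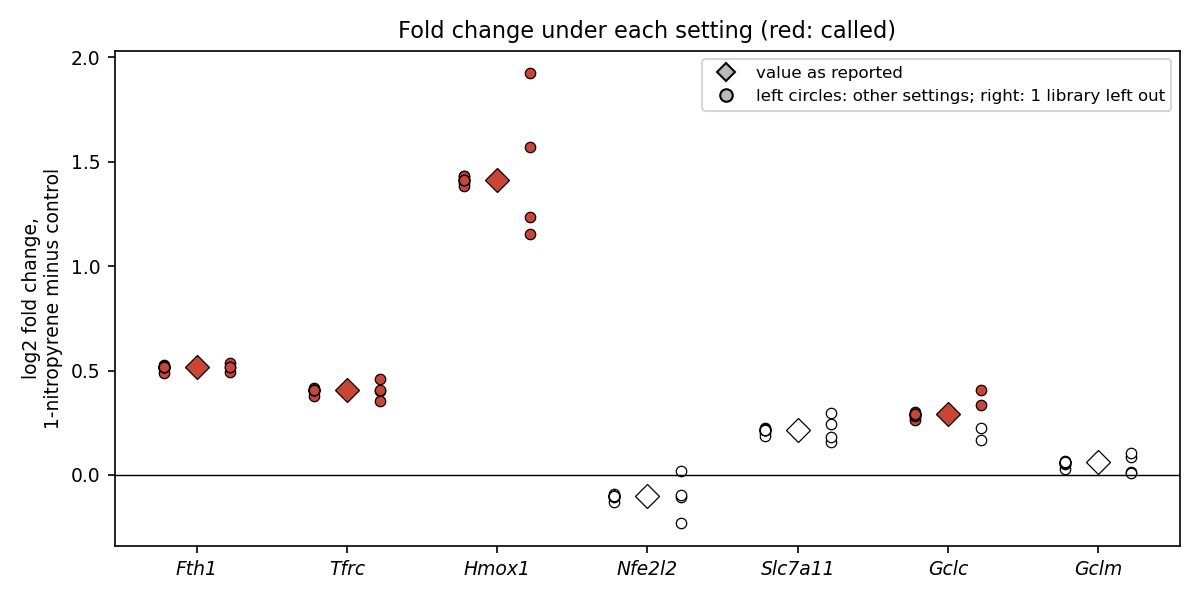
Log2 fold change of the 7 tested genes as reported (diamonds), under other settings (circles on the left of each) and with 1 library left out (circles on the right), red where the gene was called. Fth1, Tfrc and Hmox1 are red throughout, and Gclc is white in 3 settings.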

How the data were processed

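The authors deposited a table of read counts for each gene and library, whole numbers with no normalization. Per the submitters' processing notes the build was GRCm38 (mm10), and the tools named, without roles, were featureCounts 1.6.3, HISAT2 2.1.0 and DESeq2. The annotation release is not given in the sources used here, nor is the strand setting, so genes that overlap on opposite strands may share reads. Of 53465 identifiers 53360 were matched to GENCODE M21 (GRCm38) for symbols, positions and exon lengths.

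Counts were filtered with filterByExpr, scaled with TMM factors (0.989 to 1.01) and tested with edgeR 4.0.16 in R 4.3.3 (quasi-likelihood, legacy set to FALSE, intercept and treatment) over 7738 genes. Its spread was pooled over all genes. The dispersion was 1 value used for every gene, a biological coefficient of variation of 2.34%. That value was not estimated gene by gene, and it leaves out the error of counting, which is larger at low counts. Standard errors were taken as the size of the log2 fold change over the square root of F, and intervals are at the 95% level. Intervals for differences between 2 genes treat the genes as independent. All tests are two-sided. The alternatives used DESeq2 1.42.0 and limma 3.58.1. Simulated counts of the 7738 genes were drawn from the kind of model that the fit assumes. Every gene had a dispersion of 0.001, where the fit to the data gave 0.000546. Changes of 1.25-fold, 1.5-fold and 2-fold were put into 67, 69 and 64 genes. The fit found 41.8% of the 1.25-fold changes, 71.0% of the 1.5-fold and 81.2% of the 2-fold changes, and 5.15% of the called genes were unchanged ones. These shares describe the fit under its own model and cannot show how many calls in the data are right.

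The members, lists and tests were chosen with earlier results of these data known. Named genes are the 10 members, up to 4 other tested genes per list with the smallest p, a fixed set around Hmox1, iron and Nrf2 (Hmox2, Nqo1, Bach1, Slc40a1, Aco1, Ireb2, Ncoa4, Gpx4, Srxn1 and Sqstm1), and the 3 profiles nearest to the called member with the smallest p. Nadk, Sod1, Cat, B2m, Actb, Slc3a2, Txn1, the markers named and the loci that share sequence with members were chosen after their values were seen.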

Additional observations from a re-analysis of the deposited data

How the results depend on the processing

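No paired analysis was possible because the groups share only replicate number 2. Of the 104 values of the 7 tested members under the 15 alternatives, 100 kept their direction and their side of the threshold, and 3 of the others were lost calls of Gclc. Nfe2l2 changed sign without 1-nitropyrene replicate 3 (log2 fold change -0.23 to 0.018 with 1 library left out), as did Sod2 (-0.10 to 0.037), and Ireb2 without control replicate 2 or 1-nitropyrene replicate 2 (-0.15 to 0.053), none of them called. Of the members 4 were higher, 3 to 4 with 1 library left out, and 0 lower throughout. Over the 7 tested members alone, 3 were called without 1-nitropyrene replicate 3, since the 4 there include Keap1, which entered the test only through its high library. DESeq2 called 2 members higher, since it gave Hmox1 no adjusted p and did not call Gclc. Over all genes, 1024 higher and 870 lower became 465 and 254 in DESeq2, 532 lower with no filter beyond 1 count, 568 lower at an adjusted p under 0.01, and 690 to 861 higher and 511 to 647 lower with 1 library left out, lowest without control replicate 1. Of the 83 other pathway genes, 11 higher became 6 in DESeq2, and 11 lower became 3 in DESeq2, 4 with no filter, 4 at an adjusted p under 0.01 and 4 to 8 with 1 library left out (6 without control replicate 1, 4 without control replicate 2 and 6 without 1-nitropyrene replicate 3). The cause of these shifts was not tested. The scaling moved the median log2 fold change of all genes to -0.034 at most. Ftl1, Keap1 and Txnrd1 had at most 12 counts in any library, too few to pass the filter with all 4 libraries.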
